A study of Homo sapiens with 4 samples.

Results

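The 10 genes described here are NFKB1, NFKB2 and RELB, which encode subunits of the transcription factor NF-kB, NFKBIA and TNFAIP3, which encode inhibitors of its pathway, the cytokine genes IL1A, IL1B and IL6, and the chemokine genes CXCL1 and CXCL2. They were followed through all open chromatin regions that the deposited table assigned to them, which came to 50 of 58127 regions. The measurement was ATAC-seq, in which a transposase cuts and tags accessible DNA, in the human line MCF10A, established from non-tumorigenic mammary epithelium. One group of 2 libraries (A and B) carried a hairpin against the long non-coding RNA SNHG8d (shG8d), and the other group of 2 libraries carried a control hairpin (shNC). All 4 libraries therefore came from hairpin-carrying MCF10A cells. Whether libraries A and B were grown as separate cultures, and how many hairpins or clones were used, is not in the labels, so every p-value reflects library-to-library spread that may be technical only.

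The group labels need care before any value is read. The table has a set of regions common to both groups, a set specific to shG8d and a set specific to shNC, and the sizes of its smallest value steps show that the same physical libraries carry exchanged group labels between the common set and the specific sets. The more deeply sequenced pair is labelled shG8d in the common set and shNC in both specific sets. Which labels are right cannot be told apart from the table, so each region is given under the labels of its own set, directions are not pooled over sets, and none is assigned to the knockdown. Of the 50 regions, 32 were in the common set, 18 in the shNC-specific set and 0 in the shG8d-specific set. The whole table of 58127 regions holds 33913, 21459 and 2755 in these sets, so the shG8d-specific set is small throughout. How the regions of the specific sets were chosen is not given in the sources used here, so p-values in these sets may not be independent of that choice. Under the test described below, 2842 shNC-specific regions were lower under the shG8d label and 210 higher. In the shG8d-specific set 1 was lower and 1928 were higher. A call in the prevailing direction of a specific set is therefore given as a description only.

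NF-kB is a family of dimeric transcription factors held in the cytoplasm by inhibitor proteins such as IkBα, the product of NFKBIA. Signals from the TNF, interleukin-1 and Toll-like receptors activate the IkB kinase, which marks the inhibitor for degradation and frees the dimer to enter the nucleus. There it activates cytokine and chemokine genes, and also NFKBIA and TNFAIP3, whose products shut the pathway down again. Mammary epithelial cells are known to make IL-1, IL-6 and neutrophil-attracting chemokines of this kind.

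The sequences below are proximal promoters of the 6 genes with a called promoter region (NFKB1, NFKB2, NFKBIA, TNFAIP3, IL1B and IL6) and of the related chemokine pair (CXCL1 and CXCL2). They come from RefSeq (GRCh38.p14) and run from 250 bases before to 50 bases after an annotated start site. They were matched by gene symbol only, since the starts and ends of the deposited hg19 regions were not used here. Called regions need not lie in these windows. Those of NFKBIA and IL6 were centred 708 bp after and 388 bp before a start site, outside the printed bases. Capitals mark matches, on either strand, to the NF-kB consensus decamer, which begins with GGG and ends with CC. For NFKB1 and NFKB2, which have several windows, those holding a match are printed. NFKB1 is at chr4:102501109-102501408 (+ strand), the NFKB2 windows at chr10:102394328-102394627 (+ strand) and chr10:102395455-102395754 (+ strand), NFKBIA at chr14:35404700-35404999 (- strand), TNFAIP3 at chr6:137867009-137867308 (+ strand), IL1B at chr2:112836730-112837029 (- strand), IL6 at chr7:22726950-22727249 (+ strand), CXCL1 at chr4:73869143-73869442 (+ strand) and CXCL2 at chr4:74099146-74099445 (- strand).
NFKB1: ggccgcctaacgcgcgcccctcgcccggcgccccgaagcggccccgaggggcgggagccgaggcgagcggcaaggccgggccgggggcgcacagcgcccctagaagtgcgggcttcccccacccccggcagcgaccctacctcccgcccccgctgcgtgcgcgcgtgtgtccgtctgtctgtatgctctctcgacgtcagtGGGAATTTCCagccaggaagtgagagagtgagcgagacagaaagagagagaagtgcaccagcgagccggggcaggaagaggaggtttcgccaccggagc
NFKB2, first window: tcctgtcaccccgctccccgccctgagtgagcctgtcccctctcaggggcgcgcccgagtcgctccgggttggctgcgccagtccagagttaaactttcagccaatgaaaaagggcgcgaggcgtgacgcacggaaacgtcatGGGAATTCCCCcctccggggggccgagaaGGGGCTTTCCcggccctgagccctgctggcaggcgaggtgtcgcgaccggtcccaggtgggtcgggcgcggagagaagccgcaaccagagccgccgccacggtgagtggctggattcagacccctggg
NFKB2, second window: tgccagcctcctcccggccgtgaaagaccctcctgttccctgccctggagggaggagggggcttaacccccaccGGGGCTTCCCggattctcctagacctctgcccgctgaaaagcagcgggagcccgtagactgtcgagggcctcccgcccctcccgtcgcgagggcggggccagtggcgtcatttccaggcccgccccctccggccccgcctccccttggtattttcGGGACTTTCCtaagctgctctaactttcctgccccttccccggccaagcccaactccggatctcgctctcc
NFKBIA: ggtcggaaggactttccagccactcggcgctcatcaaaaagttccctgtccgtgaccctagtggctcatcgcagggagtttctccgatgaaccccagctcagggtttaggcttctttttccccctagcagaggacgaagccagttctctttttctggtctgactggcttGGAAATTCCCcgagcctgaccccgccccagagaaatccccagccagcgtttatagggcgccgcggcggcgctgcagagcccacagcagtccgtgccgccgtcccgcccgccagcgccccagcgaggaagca
TNFAIP3: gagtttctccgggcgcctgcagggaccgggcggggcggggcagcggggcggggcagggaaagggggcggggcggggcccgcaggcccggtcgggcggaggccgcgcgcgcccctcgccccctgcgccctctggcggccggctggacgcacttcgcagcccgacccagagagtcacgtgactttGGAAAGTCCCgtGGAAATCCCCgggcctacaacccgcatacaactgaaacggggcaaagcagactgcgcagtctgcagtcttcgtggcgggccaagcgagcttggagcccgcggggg
IL1B: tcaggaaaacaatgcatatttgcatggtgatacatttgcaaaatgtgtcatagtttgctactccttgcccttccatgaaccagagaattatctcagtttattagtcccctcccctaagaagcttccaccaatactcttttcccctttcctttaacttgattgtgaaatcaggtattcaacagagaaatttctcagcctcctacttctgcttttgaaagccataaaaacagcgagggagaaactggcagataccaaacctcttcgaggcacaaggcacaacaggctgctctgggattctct
IL6: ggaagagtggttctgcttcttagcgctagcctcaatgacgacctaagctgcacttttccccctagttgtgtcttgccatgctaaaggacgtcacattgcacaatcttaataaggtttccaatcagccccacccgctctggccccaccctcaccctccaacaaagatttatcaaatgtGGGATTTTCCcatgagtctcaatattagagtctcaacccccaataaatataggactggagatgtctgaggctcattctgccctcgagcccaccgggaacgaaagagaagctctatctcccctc
CXCL1: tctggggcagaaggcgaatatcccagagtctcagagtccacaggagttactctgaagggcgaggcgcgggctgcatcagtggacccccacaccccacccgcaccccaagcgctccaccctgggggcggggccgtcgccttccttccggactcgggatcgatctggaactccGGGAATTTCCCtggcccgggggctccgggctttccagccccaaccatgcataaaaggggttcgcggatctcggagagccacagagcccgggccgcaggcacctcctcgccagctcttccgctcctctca
CXCL2: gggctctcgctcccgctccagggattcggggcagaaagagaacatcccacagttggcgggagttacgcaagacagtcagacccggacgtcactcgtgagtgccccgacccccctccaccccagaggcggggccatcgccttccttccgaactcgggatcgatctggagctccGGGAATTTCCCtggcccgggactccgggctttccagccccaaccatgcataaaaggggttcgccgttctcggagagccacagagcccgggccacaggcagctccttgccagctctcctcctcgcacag

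RefSeq windows of this kind were matched for 9 of the 10 genes, all but RELB, and numbered 13 in all. The decamer was present in 8 of these 13 windows (61.5%) and in 7 of the 9 genes, against 3956 of 35116 windows of all genes (11.3%). TNFAIP3 held a pair of matches, at positions −67 to −58 and −55 to −46 from its start site, both on the opposite strand, where they read GGGACTTTCC and GGGGATTTCC. The IL6 match, GGGATTTTCC, lay at −73 to −64 and the NFKB1 match, GGGAATTTCC, at −49 to −40. CXCL1 and CXCL2 carried the same GGGAATTTCC at −79 to −70 and at −78 to −69, each overlapping a further match on the other strand that was shifted by 1 base. Aligned end to end, the CXCL1 and CXCL2 windows were identical at 240 of 334 aligned columns (71.9%), against 172 of 334 (51.5%) for CXCL1 and IL6. IL1A and IL1B held no match in these windows, which says only that these letters are not there. The AP-1 heptamer TGANTCA, searched on both strands, was present in 2 of the 13 windows (15.4%), which are the overlapping pair of IL1A windows, and in 7.71% of all windows. No window of these genes held both motifs. A match is a description of sequence and not a measured binding site.

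Regions per gene ranged from 1 for RELB to 9 for TNFAIP3. NFKB1 and NFKB2 had 7 each, NFKBIA 8, IL1A 6, IL1B 5, IL6 3, and CXCL1 and CXCL2 2 each. The deposited annotation places 22 regions between genes, 14 in introns, 8 at promoters, 2 in 5′ UTRs, 2 in exons, 1 at a transcription end and 1 in a non-coding transcript. Counting regions annotated as promoter or lying within 1000 bp of a start site, 12 regions were at promoters and 38 were distal, and 9 of the 10 genes had a promoter region. CXCL1 had none, and its nearest region lay 1393 bp upstream. The farthest region of the 50, assigned to NFKB1, lay 71564 bp upstream. Values are normalized counts as scaled by the authors, and log2 differences are shG8d-labelled minus shNC-labelled on the log2(normalized count + 1) scale. A difference is called when limma's Benjamini-Hochberg adjusted p, over all 58127 regions, is below 0.05. In such bulk libraries, fewer cells with an open region and less opening per cell cannot be told apart.

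Reads in regions numbered 8124488 and 8111839 for the deeper pair and 4457248 and 4344212 for the shallower pair, and 1 read was worth between 0.807 and 1.21 normalized counts. The upper limit behind a library with no read, 3 reads, equals 2.42 to 3.62 normalized counts and covers counting error only. Of 10 epithelial markers 9 had a promoter region in the table, with mean levels of 51.8 to 153.2 normalized counts. TP63 had none, although 11 regions away from its promoter were assigned to it. Of the markers of other cell types, CD14 (131.2 normalized counts) among 5 leukocyte genes, PDGFRA (37.3) among 3 fibroblast genes and 0 of 3 endothelial genes had one, and PTPRC, CD3E, COL1A1 and PECAM1 had none. Genes without a promoter region could still have others, with 8 for KDR, 7 for CDH5, 3 for PTPRC, 1 for PECAM1 and 0 for CD79A.

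Of the 32 common regions of these genes, 1 was called higher and 4 were called lower under the shG8d label, against 10.7% higher and 15.0% lower among all 33913 common regions. The median difference was −0.11 for the 32 regions and −0.12 for all common regions. In the shNC-specific set 1 of 18 regions was called higher and 4 were called lower, against 0.979% and 13.2% of all 21459 regions of that set, and the medians were −0.25 and −0.24. The shG8d-labelled values lay wholly above the shNC-labelled values at 8 of the 32 common regions and wholly below at 13, against 27.1% and 40.0% of all common regions. In the shNC-specific set they lay wholly above at 1 of 18 and wholly below at 7, against 13.6% and 39.8%. The medians of these genes were thus near those of their sets. At an unadjusted limma p under 0.05, 4 common regions were higher and 7 lower (16.1% and 23.8% of all), and 1 shNC-specific region was higher and 6 were lower (3.16% and 22.1% of all). With a fold of at least 2 also required, 0 common regions were higher and 0 lower (3.19% and 5.58% of all), and 1 shNC-specific region was higher and 1 lower (0.513% and 9.06% of all).

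These counts move with the scaling of the libraries. With the 4 libraries scaled to equal totals, the median of all regions went to −0.47 in the common set and to 0.10 in the shNC-specific set, and the medians of these genes to −0.46 and 0.10. Under that scaling 0 common regions were called higher and 12 lower (4.01% and 36.6% of all), and 2 shNC-specific regions were called higher and 0 lower (6.32% and 5.69% of all). A sign near 0 is therefore relative to the authors' scaling.

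**Figure D1:**
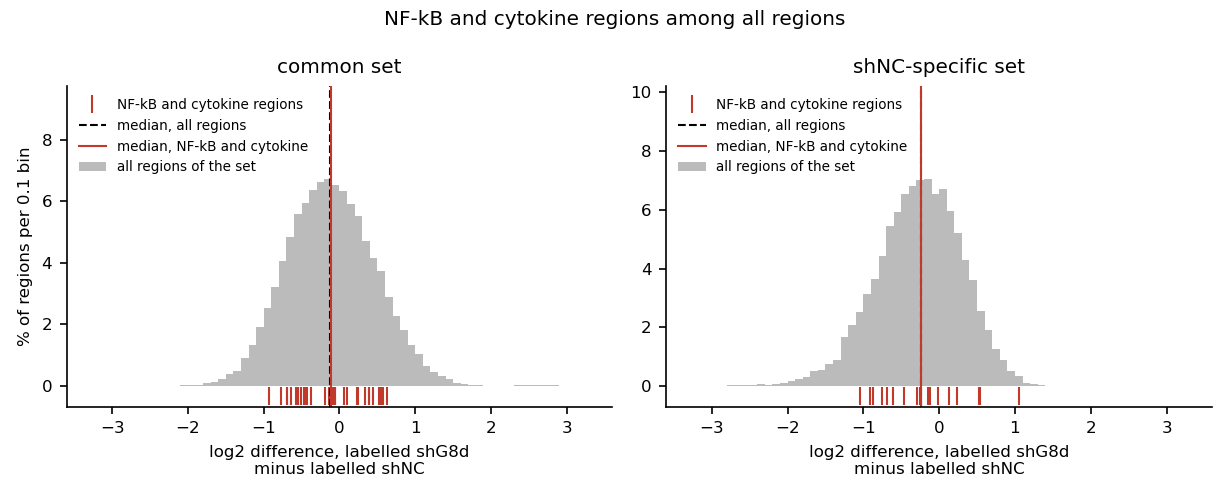
Log2 difference, labelled shG8d minus labelled shNC, of all regions of the common set and of the shNC-specific set (grey bars, % of regions per bin of 0.1), with the NF-kB and cytokine regions as red ticks, and medians as lines (red for these genes, dashed for all regions). The red ticks spread through the grey distribution in both panels, with medians of −0.11 against −0.12 in the common set and −0.25 against −0.24 in the shNC-specific set.

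At promoters, 1 of 9 common regions was called higher and 3 were called lower under shG8d, against 17.4% and 12.4% of all common promoter regions. The region called higher belonged to NFKB2, and those called lower belonged to TNFAIP3, IL1B and IL6. Of the 3 shNC-specific promoter regions 0 were called higher and 2 lower, against 1.11% and 26.7% of that set's promoter regions, and at an unadjusted p under 0.05 the limma count of higher regions stayed at 0. Distal regions were called at 0 higher and 1 lower of 23 in the common set (8.35% and 15.9% of all) and at 1 higher and 2 lower of 15 in the shNC-specific set (0.951% and 10.4% of all). In the authors' deposited table, 5 of 32 common regions had an unadjusted p under 0.05, against 10.7% higher and 15.7% lower of all common regions. In the shNC-specific set 5 of 18 did, against 1.32% and 13.4%. These were the same 10 regions that limma called, 1 higher and 4 lower in each set. Both tests rest on the same libraries, so the overlap is not independent support. Common-set levels had a median of 88.7 normalized counts in these genes and 81.5 in all common regions, and shNC-specific levels had medians of 46.0 and 35.6.

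**Figure D2:**
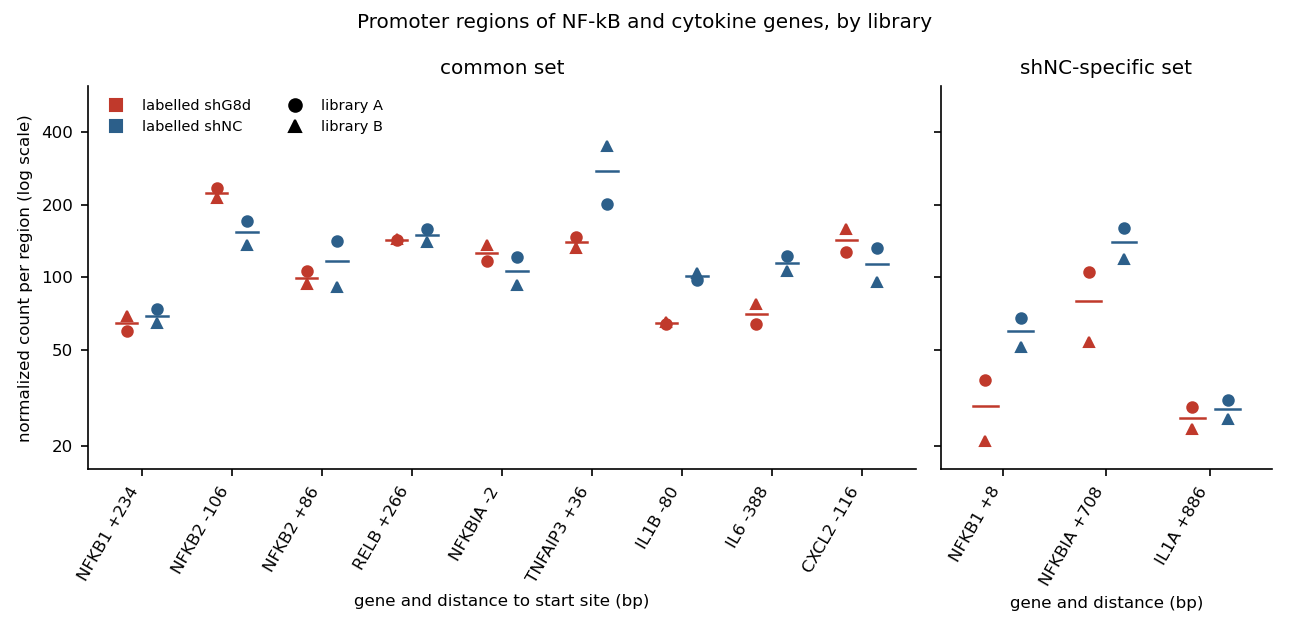
Normalized count (log scale) in each library at the 12 promoter regions, grouped by set, with red for columns labelled shG8d, blue for columns labelled shNC, circles for library A, triangles for library B and short lines for means of 2 libraries. TNFAIP3 +36 stands out, at 147.3 and 132.3 in shG8d-labelled libraries against 201.7 and 350.3 in shNC-labelled libraries.

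The subunit genes come first. NFKB1 encodes p105, which is processed to the DNA-binding subunit p50. Its region centred 8 bp after a start site (chromosome 4, annotated promoter, shNC-specific) had 37.5 and 21.1 normalized counts in shG8d-labelled libraries, against 68.2 and 51.6 in shNC-labelled libraries. The groups did not overlap, and the region was called lower (−1.05, SE 0.333, adjusted p = 0.0282). It held 31 and 18 reads in shG8d-labelled libraries against 81 and 64 in shNC-labelled libraries. The call held without shG8d-labelled A (−1.45, adjusted p = 0.000323) and was lost without shG8d-labelled B (−0.65, adjusted p = 0.123), without shNC-labelled A (−0.85, adjusted p = 0.277) and without shNC-labelled B (−1.25, adjusted p = 0.0639). A second NFKB1 region, in the common set, lay 234 bp after another start site, in the 5′ UTR (exon 1 of 24). It had 59.8 and 69.4 normalized counts in shG8d-labelled libraries against 73.7 and 64.4 in shNC-labelled libraries, with overlapping groups (−0.10, adjusted p = 0.812).

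The other 5 regions assigned to NFKB1 all lay in introns of NFKB1-AS1, the antisense gene that runs upstream from its promoter. Of these, 4 were in the common set, with differences of −0.57 to 0.06, and 1 in the shNC-specific set, at 0.52. Of the 5, 0 were called, against 8.35% higher and 15.9% lower of all common distal regions (0.951% and 10.4% in the shNC-specific set). The strongest, 71564 bp upstream, had 91.7 and 92.8 normalized counts in shG8d-labelled libraries against 84.6 and 92.6 in shNC-labelled libraries (0.06, adjusted p = 0.870). In 3 of the 4 common regions the shG8d-labelled values lay below the shNC-labelled values without overlap, against 42.8% of all common distal regions.

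NFKB2 encodes p100, which is processed to p52 in the alternative pathway. Its promoter region centred 106 bp before a start site (chromosome 10, common set) had 234.0 and 213.9 normalized counts in shG8d-labelled libraries, against 171.5 and 135.9 in shNC-labelled libraries. Both shG8d-labelled values were above both shNC-labelled values, and the region was called higher (0.55, SE 0.185, adjusted p = 0.0377). It was the only common region of these 10 genes called higher. The call held without shNC-labelled A (0.71, adjusted p = 0.000568) and was lost without shG8d-labelled A (0.48, adjusted p = 0.305), shG8d-labelled B (0.61, adjusted p = 0.154) and shNC-labelled B (0.38, adjusted p = 0.1004). With equal library totals it was 0.20 (adjusted p = 0.449).

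A second NFKB2 promoter region, 86 bp after another annotated start site, had 106.0 and 93.6 normalized counts in shG8d-labelled libraries against 141.3 and 91.4 in shNC-labelled libraries, with overlapping groups (−0.19, adjusted p = 0.587). Among distal NFKB2 regions, 3 lay inside the neighbouring gene GBF1. The one in exon 22 of 40 of GBF1, 25850 bp upstream (shNC-specific), had 37.5 and 32.8 normalized counts in shG8d-labelled libraries against 18.5 and 14.5 in shNC-labelled libraries. It went against the prevailing direction of its set (1.05, SE 0.378, adjusted p = 0.0499), and its shNC-labelled values rest on 22 and 18 reads. That call was kept only without shG8d-labelled B (adjusted p = 0.0426). Without shG8d-labelled A it was 0.96 (adjusted p = 0.0798), without shNC-labelled A 1.22 (adjusted p = 0.166) and without shNC-labelled B 0.89 (adjusted p = 0.291). A pair of common regions in GBF1 introns, 1206 bp apart, differed in opposite directions (−0.69 at 51051 bp upstream and 0.62 at 49845 bp upstream), and neither was called (adjusted p = 0.0692 and 0.0730). The remaining 2 distal regions lay 4060 bp downstream in exon 13 of 22 of NFKB2 (shNC-specific, −0.60, adjusted p = 0.0886) and 6292 bp downstream at the end of PSD (common, 0.44, adjusted p = 0.153).

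RELB, the partner of p52, had a single region, in intron 1 of 10 and 266 bp after its start site (chromosome 19, common set). Its 142.2 and 143.6 normalized counts in shG8d-labelled libraries overlapped the 158.3 and 140.6 in shNC-labelled libraries. The difference was −0.06 (SE 0.188, adjusted p = 0.844), which does not show that the groups were alike. Among the 3 subunit genes, promoter differences in the common set ran from −0.19 (NFKB2 +86) to 0.55 (NFKB2 −106). In the shNC-specific set NFKB1 +8 was at −1.05, under exchanged labels. By physical library, NFKB1 +8 and NFKB2 −106 were both higher in the deeper pair, by 1.05 and 0.55.

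The inhibitor genes followed. TNFAIP3 encodes A20, a ubiquitin-editing enzyme that ends signalling from TNF and Toll-like receptors. Its promoter region, centred 36 bp after a start site (chromosome 6, common set), had 147.3 and 132.3 normalized counts in shG8d-labelled libraries, against 201.7 and 350.3 in shNC-labelled libraries. This was the most negative difference of the 32 common regions (−0.92, SE 0.217, adjusted p = 0.00550). The shNC-labelled libraries were far apart. Without shNC-labelled B the difference was −0.53 (adjusted p = 0.0301), and the call also held without each of the other libraries in turn (adjusted p = 0.0212, 0.0439 and 1.27e-11). The recovered reads were 175 and 164 in shG8d-labelled libraries against 167 and 299 in shNC-labelled libraries.

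The other 8 TNFAIP3 regions were distal and upstream. Calls among them numbered 0, against 8.35% higher and 15.9% lower of all common distal regions (0.951% and 10.4% in the shNC-specific set). Of the 8, 6 lay inside WAKMAR2, a long non-coding RNA gene next to TNFAIP3, 3 of them common (−0.38 to 0.39) and 3 shNC-specific (−0.24 to 0.55). The other 2, further upstream between genes, were common and at 0.39 and 0.23. At both, shG8d-labelled values lay wholly above shNC-labelled values, as at 5997 of all 25096 common distal regions.

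NFKBIA encodes IkBα. Its promoter region, centred 2 bp before the start site (chromosome 14, common set), had 117.0 and 135.6 normalized counts in shG8d-labelled libraries, against 120.8 and 92.6 in shNC-labelled libraries. The groups overlapped (0.25, SE 0.211, adjusted p = 0.416). A second region, 710 bp further on in intron 1 of 5 (shNC-specific), had 105.1 and 53.9 normalized counts in shG8d-labelled libraries against 159.9 and 119.4 in shNC-labelled libraries. It was called lower (−0.87, SE 0.266, adjusted p = 0.0239). The call was lost without shNC-labelled A (−0.66, adjusted p = 0.237) and without shG8d-labelled B (−0.39, adjusted p = 0.161), whereas without shG8d-labelled A it was −1.34 (adjusted p = 1.14e-07) and without shNC-labelled B the adjusted p was 0.0274. Although the labelled signs of these neighbours are opposite, the labels are exchanged between their sets, and by physical library both were higher in the deeper pair, by 0.25 and 0.87.

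The 6 distal NFKBIA regions were all downstream and between genes. Of the 6, 0 were called, against 8.35% higher and 15.9% lower of all common distal regions (0.951% and 10.4% in the shNC-specific set). The strongest, 5225 bp downstream (common), had 98.5 and 141.2 normalized counts in shG8d-labelled libraries against 169.1 and 175.7 in shNC-labelled libraries, without overlap (−0.54, SE 0.205, adjusted p = 0.0604). It crossed the threshold without shNC-labelled A (adjusted p = 0.0183) and without shNC-labelled B (adjusted p = 0.0486). At 34739 bp downstream another common region went the other way (0.52, adjusted p = 0.0763). The 3 distal shNC-specific regions were at −0.47 to −0.15.

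Both IL-1 genes lie on chromosome 2 and code for the 2 agonist forms of interleukin-1, IL-1α and IL-1β. At the IL1B promoter the region centred 80 bp before the start site (common set) had 64.0 and 65.4 normalized counts in shG8d-labelled libraries, against 97.9 and 104.3 in shNC-labelled libraries. The values within each group were close, the groups did not overlap, and the region was called lower (−0.64, SE 0.226, adjusted p = 0.0474). The recovered reads were 76 and 81 in shG8d-labelled libraries against 81 and 89 in shNC-labelled libraries, closer together than after the authors' scaling for depth. The call was kept without shNC-labelled A (adjusted p = 0.0306) and lost without shNC-labelled B (−0.59, adjusted p = 0.0860), shG8d-labelled A (−0.62, adjusted p = 0.241) and shG8d-labelled B (−0.65, adjusted p = 0.193).

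The shG8d-labelled values lay wholly below the shNC-labelled values at all 3 common IL1B regions, as they did at 40.0% of all common regions. The other 2, at 32889 bp upstream (−0.55, adjusted p = 0.104) and 24524 bp downstream (−0.43, adjusted p = 0.168), were not called. In the shNC-specific set, the region 22299 bp downstream of IL1B had 62.8 and 84.4 normalized counts in shG8d-labelled libraries against 111.1 and 125.9 in shNC-labelled libraries. It was called lower (−0.69, SE 0.226, adjusted p = 0.0328), which was kept without shG8d-labelled B (adjusted p = 0.00153) and lost without shG8d-labelled A (−0.48, adjusted p = 0.0806), shNC-labelled A (−0.78, adjusted p = 0.128) and shNC-labelled B (−0.60, adjusted p = 0.246). The second shNC-specific region, 23903 bp downstream, was at 0.13 and not called.

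At IL1A the promoter region was weak. Centred 886 bp after the start site in the 5′ UTR (exon 1 of 7, shNC-specific), it had 29.0 and 23.4 normalized counts in shG8d-labelled libraries against 31.1 and 25.8 in shNC-labelled libraries (−0.12, adjusted p = 0.845), at the 8.09th percentile of level among promoter regions of its set. The most accessible IL1A region lay 9009 bp upstream (common), with 86.7 and 111.4 normalized counts in shG8d-labelled libraries against 111.1 and 75.0 in shNC-labelled libraries, with overlapping groups (0.10, adjusted p = 0.786). One region was called, 20344 bp upstream (shNC-specific), with 38.7 and 86.7 normalized counts in shG8d-labelled libraries against 98.5 and 122.7 in shNC-labelled libraries (−0.91, SE 0.296, adjusted p = 0.0316). The shG8d-labelled libraries were far apart there, and without shG8d-labelled A the difference was −0.34 (adjusted p = 0.250), while without shG8d-labelled B it was −1.48 (adjusted p = 5.64e-07). The call was also lost without shNC-labelled A (−1.07, adjusted p = 0.0546) and shNC-labelled B (−0.75, adjusted p = 0.187). Of the other 3 IL1A regions, those in the common set were at −0.07 and 0.57 and the shNC-specific one was at 0.23. Calls among them numbered 0, against 8.35% higher and 15.9% lower of all common distal regions (0.951% and 10.4% in the shNC-specific set).

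Between IL1A and IL1B, which point the same way, the regions upstream of IL1A and downstream of IL1B numbered 8, of which 4 were common and 4 shNC-specific. Of the 4 shNC-specific regions 0 were called higher and 2 lower, against 0.951% and 10.4% of all distal regions of that set. The common regions, of which 0 were called (8.35% higher and 15.9% lower of all common distal regions), ran from −0.43 to 0.57. The highest of these, 10503 bp upstream of IL1A, had a limma adjusted p of 0.0691. Neighbouring regions of different sets here lay 621 to 1403 bp apart.

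IL6 encodes interleukin-6. Its promoter region, annotated as promoter and centred 388 bp before the start site (chromosome 7, common set), had 64.0 and 77.5 normalized counts in shG8d-labelled libraries, against 122.0 and 106.6 in shNC-labelled libraries. It was called lower without overlap of the groups (−0.69, SE 0.223, adjusted p = 0.0317). The call was kept only without shNC-labelled B (adjusted p = 0.0110). Without shG8d-labelled A it was −0.55 (adjusted p = 0.286), without shG8d-labelled B −0.82 (adjusted p = 0.0824) and without shNC-labelled A −0.59 (adjusted p = 0.0556). The centre of this region lies farther from its start site than the 250 bases covered by the IL6 window printed above, so the decamer there was not shown to fall within the region. The distal IL6 regions, 8897 bp upstream (common, −0.13, adjusted p = 0.732) and 30266 bp upstream (shNC-specific, −0.29, adjusted p = 0.589), were not called.

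CXCL1 and CXCL2 encode closely related chemokines that attract neutrophils, and both lie on chromosome 4. CXCL2 had the strongest region of all 50, between genes and 10270 bp upstream of its start site (common set). It had 212.9 and 246.1 normalized counts in shG8d-labelled libraries, against 401.1 and 384.3 in shNC-labelled libraries, which puts it at the 98.7th percentile of common distal regions. Values within each group were close, and the region was called lower (−0.78, SE 0.165, adjusted p = 0.00294), with the smallest adjusted p of the 50. The recovered reads were 253 and 305 in shG8d-labelled libraries, the deeper pair in this set, and 332 and 328 in shNC-labelled libraries. By normalized counts the deeper pair was below at 58.1% of all common regions, and the part of depth was not tested. The call held without shG8d-labelled B (adjusted p = 0.0216), shNC-labelled A (5.36e-05) and shNC-labelled B (2.67e-05) but was lost without shG8d-labelled A (−0.67, adjusted p = 0.0966).

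At its promoter, 116 bp before the start site (common set), CXCL2 had 127.9 and 158.2 normalized counts in shG8d-labelled libraries against 131.7 and 96.1 in shNC-labelled libraries. The groups overlapped (0.34, SE 0.212, adjusted p = 0.265), although without shNC-labelled A the difference was 0.56 (adjusted p = 0.0253). Promoter and upstream region of CXCL2 thus had opposite signs, and the difference between them was not tested. For CXCL1, the region 1393 bp upstream (shNC-specific) had 39.9 and 25.8 normalized counts in shG8d-labelled libraries against 51.3 and 58.1 in shNC-labelled libraries, without overlap (−0.75, SE 0.314, adjusted p = 0.0897). Its stronger region, in the common set, lay 47976 bp downstream of the start of another CXCL1 transcript. That region had 59.8 and 52.5 normalized counts in shG8d-labelled libraries against 87.0 and 66.8 in shNC-labelled libraries (−0.44, adjusted p = 0.222).

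**Figure D3:**
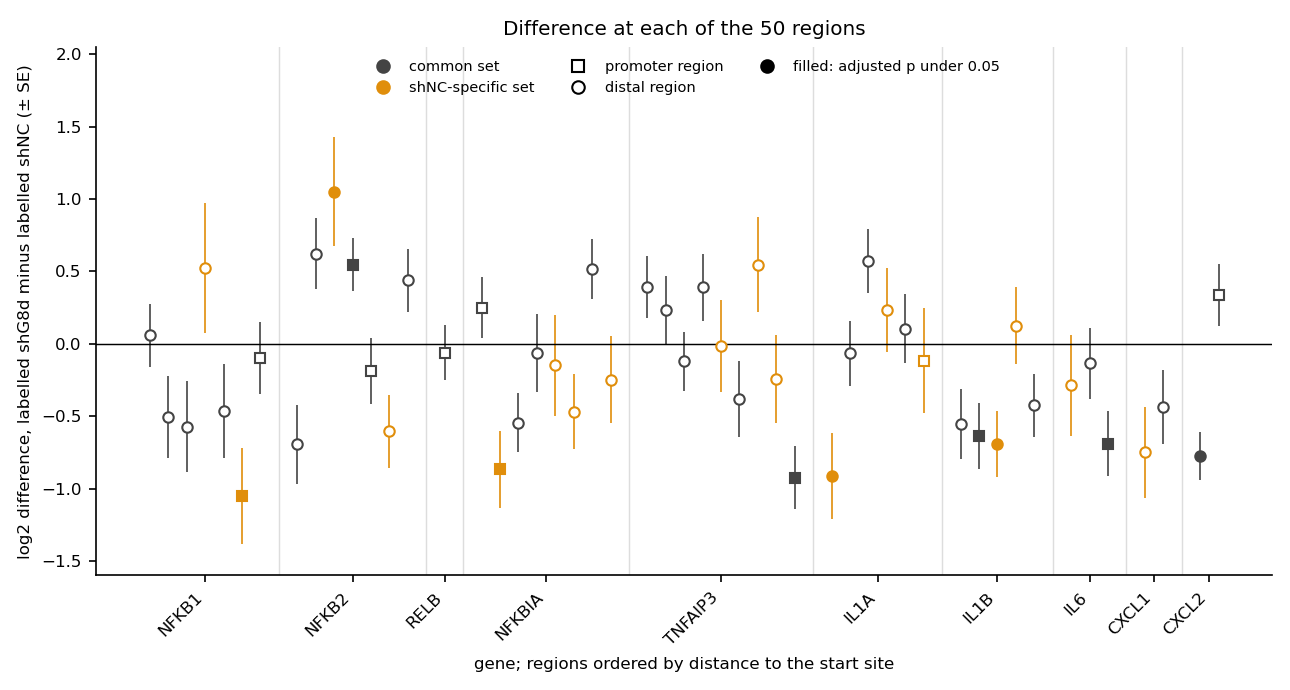
Log2 difference, labelled shG8d minus labelled shNC, with its SE (bars) at each of the 50 regions, ordered within each gene by distance to the start site. Black is the common set, orange the shNC-specific set, squares are promoter regions, circles distal regions, and filled symbols have an adjusted p under 0.05. In the common set 1 filled symbol is above 0 (NFKB2) and 4 are below (TNFAIP3, IL1B, IL6 and CXCL2), against 10.7% and 15.0% of all common regions. In the shNC-specific set 1 is above 0 (NFKB2) and 4 are below (NFKB1, NFKBIA, IL1A and IL1B), against 0.979% and 13.2%.

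By physical library, these regions split much as their sets did. In the deeper pair, values were above those of the shallower pair at 25 of the 50 regions and below at 25. In the common set they were above at 12 and below at 20 (41.9% and 58.1% of all common regions), and in the shNC-specific set above at 13 and below at 5 (66.5% and 33.5% of all). The lower calls at the promoters of TNFAIP3, IL1B and IL6 and at the region upstream of CXCL2 were lower in the deeper pair. Those at NFKB1 +8, NFKBIA +708, IL1A −20344 and IL1B +22299 were lower in the shallower pair. Regions called lower by label in the common set and in the shNC-specific set thus differ in opposite directions among the libraries, and depth, batch and hairpin cannot be told apart within a set.

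All 10 calls kept their sign when each library was left out in turn. This was fixed in advance, since the groups did not overlap at any of the 10 regions. TNFAIP3 +36 was called in all 4 of these fits, CXCL2 −10270 in 3 and NFKBIA +708 in 2. The other 7 regions were each called in 1 of 4. Without the mean-variance trend 1 of the 10 calls remained, NFKB2 −25850, and TNFAIP3 +36 and CXCL2 −10270 had adjusted p of 0.0706 and 0.0591. With each set fitted on its own, 0 of the 5 shNC-specific calls remained.

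**Figure D4:**
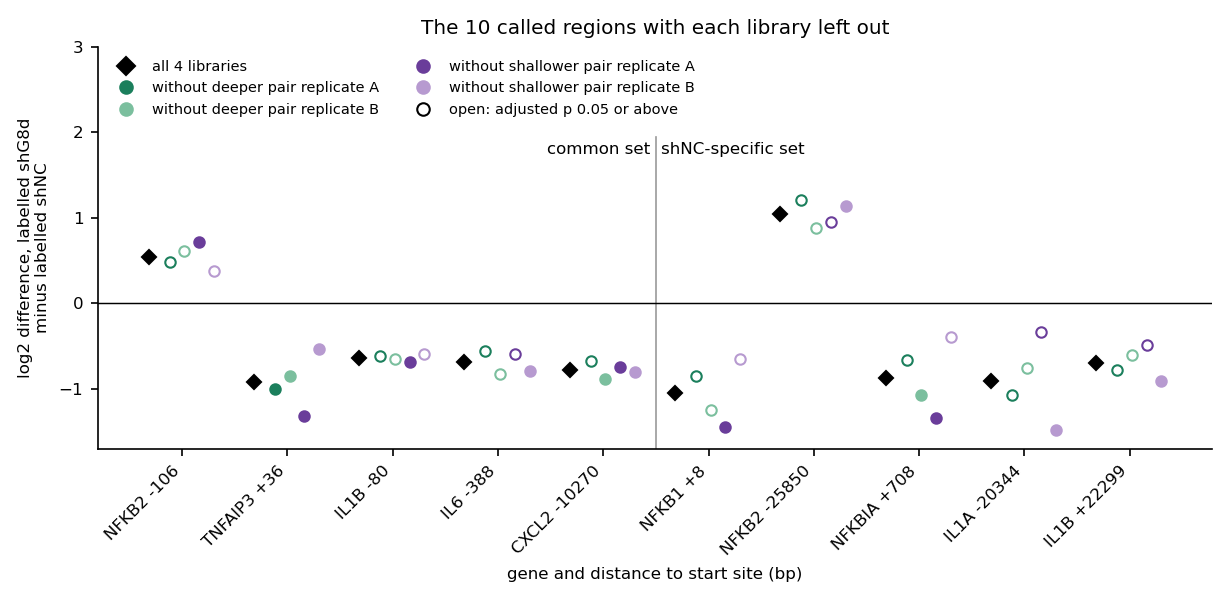
Log2 difference, labelled shG8d minus labelled shNC, at the 10 called regions with all 4 libraries (black diamonds) and with each library left out (circles, open where the adjusted p was 0.05 or above). In the common set the deeper pair is labelled shG8d and in the shNC-specific set shNC. With groups that did not overlap at any of the 10 regions, no circle could cross 0. Circles stay on the side of their diamond at all 10 regions, and only TNFAIP3 +36 has 4 filled circles.

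The rest of the pathway was described from a list of 85 genes, of which 49 had a promoter region, taken as 1 region per gene. In the common set 7 of 34 such genes were called higher and 4 lower under shG8d, against 18.0% and 12.2% of all genes with a common promoter region, with medians of 0.08 and 0.04. Of 13 genes in the shNC-specific set 0 were called higher and 5 lower, against 0.981% and 28.9%, with medians of −0.51 and −0.50, and 0 were higher at an unadjusted limma p under 0.05. Of 2 genes in the shG8d-specific set 1 was called higher, against 66.9%. Among the receptors and ligands 3 of 7 common genes were higher and 1 lower, among adaptors and kinases 2 of 12 were higher and 0 lower, among other subunits and inhibitors 1 of 7 was higher and 2 lower, and among targets and other cytokines 1 of 8 was higher and 1 lower.

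IL1RN, which encodes the secreted antagonist of the IL-1 receptor, had the largest difference of the common pathway genes, with 278.6 and 255.8 normalized counts in shG8d-labelled libraries against 128.1 and 62.1 in shNC-labelled libraries (1.57, SE 0.248, adjusted p = 0.000324). It was called in all 13 alternative fits. The IL1B promoter region, also on chromosome 2 and in the common set, was called in the opposite direction. IL1R1, the IL-1 signalling receptor, was higher at 1.06 (adjusted p = 0.0426), which was lost without shG8d-labelled B (0.72, adjusted p = 0.327) and without shNC-labelled B (0.38, adjusted p = 0.336), and was 1.74 without shNC-labelled A. The adaptor gene TRAF2 (1.04, adjusted p = 0.00408) and the kinase gene RIPK1 (0.93, adjusted p = 0.0217), which act below the TNF receptor, were also higher. TRAF2 lost its call without shG8d-labelled A (0.87, adjusted p = 0.0626) and was 0.60 without shNC-labelled B, and RIPK1 without shG8d-labelled B (0.71, adjusted p = 0.237) and shNC-labelled B (0.59, adjusted p = 0.0809).

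On the lower side of the common set were TNIP2 (−1.02, adjusted p = 0.00348), which encodes an A20-binding protein, TAX1BP1 (−0.86, adjusted p = 0.00671), an A20 adaptor, TLR4 (−0.68, adjusted p = 0.0343), the endotoxin receptor, and BIRC3 (−0.50, adjusted p = 0.0387), a ubiquitin ligase. TNIP2 was called without each library in turn, at −0.66 without shNC-labelled B. Without shG8d-labelled A and without shG8d-labelled B, the calls were lost for TAX1BP1 (adjusted p = 0.0565 and 0.0609) and for TLR4 (adjusted p = 0.291 and 0.0933). BIRC3 was called only without shNC-labelled A, and its adjusted p was 0.217 without shG8d-labelled A, 0.263 without shG8d-labelled B and 0.0883 without shNC-labelled B.

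In the shNC-specific set the lower genes of largest difference were TNIP1 (−1.18, adjusted p = 0.00493), another A20-binding protein, OTULIN (−1.02, adjusted p = 0.0104), a deubiquitinase, MAP3K14 (−0.83, adjusted p = 0.0259), the kinase of the alternative pathway, and BCL2L1 (−0.82, adjusted p = 0.00637), an anti-apoptotic gene. TNIP1 was called without each library in turn, at −0.59 without shG8d-labelled B and −1.78 without shG8d-labelled A. OTULIN lost its call without shNC-labelled A (adjusted p = 0.0645) and without shG8d-labelled B (−0.54, adjusted p = 0.0550), BCL2L1 without shNC-labelled A (adjusted p = 0.104) and shNC-labelled B (adjusted p = 0.0525), and MAP3K14 was called only without shG8d-labelled B (−1.29), with −0.38 (adjusted p = 0.168) without shG8d-labelled A and adjusted p of 0.125 and 0.105 without shNC-labelled A and B. CSF1, a macrophage growth factor, was the called gene of the shG8d-specific set (1.06, adjusted p = 0.0205) and was called only without shG8d-labelled A (adjusted p = 0.00617), with adjusted p of 0.0719 without shG8d-labelled B, 0.0629 without shNC-labelled A and 0.136 without shNC-labelled B. As with the 10 genes themselves, labels are exchanged between these sets, so the lower genes of the common and shNC-specific sets differ in opposite directions by physical library.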

How the data were processed

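ATAC-seq libraries of MCF10A cells were assigned to shG8d (2 libraries) or shNC (2 libraries) from the sample labels. Per the submitters' processing notes, CASAVA 1.4 and hg19 were used. How reads were aligned, peaks called, reads counted and groups tested is not given in the sources used here. Per the file headers, the authors deposited log10 normalized values per library, a log2 fold change and an unadjusted p-value for each region. That log2 value runs shG8d over shNC and departs by at most 0.00920 from the log ratio of column means. Back-transformed log10 values were whole multiples of 1 step per column for 100% of values within 0.05 reads, which gave the reads per region and identified each physical library. One read was worth 0.842 and 0.807 normalized counts in the deeper pair, against 1.21 and 1.17 in the shallower one.

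Regions with 10 normalized counts in at least 2 libraries were kept, which removed 0 regions. Differences were tested with limma 3.58.1 (R 4.3.3), a mean-variance trend and Benjamini-Hochberg adjustment over all 58127 regions at 0.05, on log2(normalized count + 1). The pseudocount of 1 understates changes of low regions. The procedure was run on simulated data in which only a small share of regions was changed, by known folds, and no scaling offset was added. That run does not give error rates for these libraries. The design allowed for read counts or normalized values, and the test for normalized values was used.

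All called regions, all promoter regions and the strongest region of each gene were described, and up to 4 called genes per set and direction of the pathway list. The members and lists were chosen with earlier results of these data known. Alternatives were other pseudocounts, filters, scalings and fits, and leaving out libraries. Promoter windows were matched by symbol, and region starts and ends were not used.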

Additional observations from a re-analysis of the deposited data

How the results depend on the processing

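Over all alternatives, the 10 called regions of the NF-kB and cytokine genes kept their sign, with 85 fits in which a call was kept and 44 in which it was lost. With 1 library left out, their sign was fixed in advance, since the groups did not overlap at these regions. Common-set counts of higher and lower calls (1 and 4) became 0 and 0 at a fold of at least 2 (3.19% and 5.58% of all). They were 0 and 12 with equal library totals (4.01% and 36.6%) and 0 and 0 without a mean-variance trend (4.65% and 8.07%). Fitting each set on its own gave 1 and 6 (12.5% and 18.7% of all). For the shNC-specific set (1 and 4), higher counts were 0 with each set fitted on its own (0.186% of all) and 2 with equal totals (6.32%). They were 0 with a filter of 50 normalized counts (2.08% of regions kept) and 0 with a pseudocount of 0.1 (0.946%). Lower counts were 1 at a fold of at least 2 (9.06%) and 0 with each set on its own (5.60%). They were 0 with equal totals (5.69%) and 0 without a trend (0.890% higher and 9.74% lower of all). At an unadjusted limma p under 0.05, the fit without a trend had 2 higher and 5 lower common regions (12.2% and 20.8% of all) and 1 higher and 6 lower shNC-specific regions (4.64% and 23.8% of all). Leaving out each library in turn gave 0 to 4 higher and 1 to 6 lower common regions (3.84% to 15.3% and 4.81% to 19.8% of all), and 0 to 1 higher and 0 to 3 lower shNC-specific regions (0.214% to 3.14% and 3.47% to 21.3% of all), where the lone library of a group is assumed to vary like the others. The pathway list gave 7 higher common genes, but 3 with equal totals, 2 without a trend and 3 to 12 leaving out libraries, and 4 lower common genes, but 1 without a trend, 6 with equal totals and 1 to 6 leaving out libraries. Its 5 lower shNC-specific genes became 1 with each set on its own, 1 with equal totals, 2 without a trend and 1 to 7 leaving out libraries. For these pathway counts, shares over all genes under each alternative are not given here. The sign turned under at least 1 alternative at 20 of the 40 uncalled regions of the NF-kB and cytokine genes. These were 12 of 27 common and 8 of 13 shNC-specific regions, and with equal totals 5 and 6. Of those described one by one, with equal totals the difference was −0.015 for CXCL2 −116, −0.25 for IL1A −9009, 0.22 for IL1A +886, −0.29 for NFKB1 −71564 and −0.10 for NFKBIA −2. Leaving out each library in turn gave ranges that cross 0 of −0.18 to 0.39 for IL1A −9009, −0.27 to 0.031 for IL1A +886, −0.20 to 0.01 for NFKB1 +234, −0.0045 to 0.12 for NFKB1 −71564, −0.50 to 0.12 for NFKB2 +86 and −0.15 to 0.024 for RELB +266. The cause of these changes was not tested. A replicate block on the letters A and B gave 1 higher and 5 lower common regions (11.7% and 16.6% of all). It gave 1 higher and 4 lower shNC-specific regions (1.29% and 15.7% of all). Same-letter deviations from the group means had a correlation of −0.00393 over a pair of libraries each. That value cannot tell whether libraries of the same letter were grown or processed together. limma voom on the recovered reads gave the same 4 counts as the block (11.5% and 16.9% of all common regions, 1.31% and 14.2% of the shNC-specific set). edgeR and DESeq2 were not run, although the recovered reads would have allowed it. The design kept a count-based test for deposited raw counts, and the deposited values are log10 normalized values. Depth limits the weakest regions, where a library holds as few as 13 reads.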
